A study of Mus musculus with 3 samples.

Results

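The cells described here are 344 epithelial cells of mouse cochlear organoids in expansion culture that held transcripts of Fgf3, a secreted fibroblast growth factor, or Dkk4, a secreted inhibitor of Wnt signalling. They were selected on measured values: among kept barcodes of the expansion library, a cell had to hold at least 1 transcript count (unique molecular identifier, UMI) of the epithelial adhesion gene Epcam, at least 2 UMIs of Fgf3 and Dkk4 together, 0 UMIs of the hypoxia gene Car9 and at most 1 UMI of the progenitor receptor gene Lgr5. Of 27996 kept expansion cells, 19737 (70.5%) held an Epcam UMI, and the 344 Fgf3/Dkk4 cells were 1.74% of these (exact Clopper-Pearson 95% interval 1.57 to 1.94%). The other 19393 Epcam cells of the same library served as the comparison.

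The organoids were grown from Lgr5-positive cochlear progenitor cells of C57BL/6 mice, and 1 library was made in each of 3 groups. The expansion group was collected at passage 2 on day 8 in medium with 20, 10 and 50 ng/mL of the growth factors EGF, bFGF and IGF and with the compounds CHIR99021 (3 um, as the labels write the unit), Y-27632 (10 um) and LPA (2.5 um). The groups at day 5 and day 25 came from the same kind of culture moved to differentiation medium with bFGF, BDNF, Shh, A83-01 and RA, and with LY4115775 until day 5. All cells were sorted as single living cells after DAPI staining, and the labels do not say how many organoids or animals a library pooled. The deposited matrices held 29098, 14452 and 6613 barcodes for expansion, day 5 and day 25, of which 27996, 13850 and 6264 were kept, with medians of 4935.5, 5962.5 and 8585 UMIs. Kept barcode sequences shared between libraries numbered 121, 51 and 21 for the 3 pairs, and 1 of the 344 Fgf3/Dkk4 cells had such a barcode. With 1 library per group and cells that all came from that library, no test was possible and no p-value is given. Intervals and floors cover counting error only.

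Fibroblast growth factors act through receptor tyrosine kinases and the ERK pathway, and Fgf3 is known for its part in the induction and patterning of the inner ear. Dickkopf proteins bind the Wnt co-receptors Lrp5 and Lrp6 and so limit Wnt signalling. Dkk4 is also a Wnt target in ectodermal placodes, and CHIR99021 in the expansion medium activates the Wnt pathway by blocking the kinase GSK3.

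The steps of the rule removed more cells with Fgf3 or Dkk4 through Lgr5 than through Car9. Of the 534 Epcam cells with at least 2 UMIs of Fgf3 and Dkk4, 136 held more than 1 Lgr5 UMI and 78 held Car9, with 24 cells in both counts. A further 14 cells with 2 or more UMIs had no Epcam UMI. Just outside the threshold lay 735 cells with 1 UMI of either gene, and just inside it 160 cells with exactly 2. The remaining Fgf3/Dkk4 cells comprised 101 with 3 or 4 UMIs and 83 with 5 or more.

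Because the rule asks for 2 UMIs, it selected deep cells. The Fgf3/Dkk4 cells had a median of 11201 UMIs (2262 to 43030) and 3075 genes, against 6152 UMIs and 2063 genes in the other Epcam cells. Their share of Epcam cells was 0.567%, 1.38%, 1.56% and 3.47% over 4 equal bins of Epcam cells, from the shallowest to the deepest. When every cell was thinned at random to 2000 UMIs before the rule was applied, 77 of 14590 Epcam cells met it (0.528%, 0.417 to 0.659%). The median mitochondrial share was 5.86% against 5.87%, and ribosomal protein genes took 33.2% against 33.5% of UMIs. Called doublets were 38.7% of the Fgf3/Dkk4 cells and 28.9% of the other cells. Levels below were therefore also taken without called doublets, from 211 Fgf3/Dkk4 cells and 13788 others.

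Levels of marker genes were set beside the label. Epcam stood at 677 CPM (UMIs of the gene in the set of cells, scaled to the usual common total) in Fgf3/Dkk4 cells and 746 CPM in the others. S100a6 and the protocadherin gene Pcdh8, the markers that the rule did not use, were 7.77-fold and 2.98-fold higher. Pcdh8 reached 20 CPM only in the Fgf3/Dkk4 cells (36.4 against 12.2 CPM) and was detected in 28.2% of them. The cells were chosen with earlier results of these data known, so these 2 values are no independent check of the label. Of 16 mesenchyme genes, the summed level was 1024 CPM against 1354 CPM, and all 5 genes that reached 20 CPM were lower. Col1a2, Postn and Osr1 were at 0 UMIs in the Fgf3/Dkk4 cells, but at only 0.0645, 0.0410 and 0.199 CPM in the others. Otor was at 105 against 170 CPM, and without called doublets at 25.8 against 101 CPM, past 2-fold. Lum, Dcn and Vim stayed under 2-fold without called doublets. Among 24 hair cell genes, the sum was 265 CPM against 283 CPM, with 5 UMIs of Atoh1, 8 of Pou4f3 and 0 of Lhx3. Of the 7 that reached 20 CPM, 3 were above the other cells, none by 2-fold: Myo6 (45.8 against 34.8 CPM), Espn (40.5 against 32.3 CPM) and Hes6 (55.7 against 50.4 CPM). The rest were lower: Ccer2 (24.0 against 34.4 CPM), Pcp4 (21.5 against 29.7 CPM), Cib2 (30.7 against 37.4 CPM) and Rasd2 (13.7 against 22.1 CPM). Without called doublets Ccer2 (2.26 against 40.4 CPM), Pcp4 (6.78 against 32.3 CPM) and Rasd2 (7.69 against 22.6 CPM) were lower past 2-fold. Myo6 was then at 45.2 against 34.2 CPM. Of 12 neuronal genes, 6 were at 0, including Tubb3 and Snap25, which were at only 0.416 and 0.223 CPM in the others. Isl1, the 1 neuronal gene that reached 20 CPM, was at 49.7 against 58.8 CPM, and Nefm was at 2.06 against 1.15 CPM.

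Fgf3 and Dkk4 were distributed in different ways over the cells. UMIs of Fgf3 alone were found in 192 of the 344 cells, of Dkk4 alone in 92, and of both in 60. Fgf3 was spread thinly: of 1296 Epcam cells with an Fgf3 UMI only 12 had 5 or more, the highest cell had 8, and 129 of the Fgf3/Dkk4 cells qualified with exactly 2 Fgf3 UMIs and no Dkk4. Dkk4 was concentrated: of 380 Epcam cells with a Dkk4 UMI, 98 had 5 or more and held 69.9% of all Dkk4 UMIs of Epcam cells, and the highest held 42. The highest Dkk4 cell among the 344 held 37 UMIs, and 30 cells had 8 or more Dkk4 UMIs with no Fgf3. The Fgf3/Dkk4 cells held 58.4% of the Dkk4 UMIs and 32.1% of the Fgf3 UMIs of all Epcam cells.

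**Figure D1:**
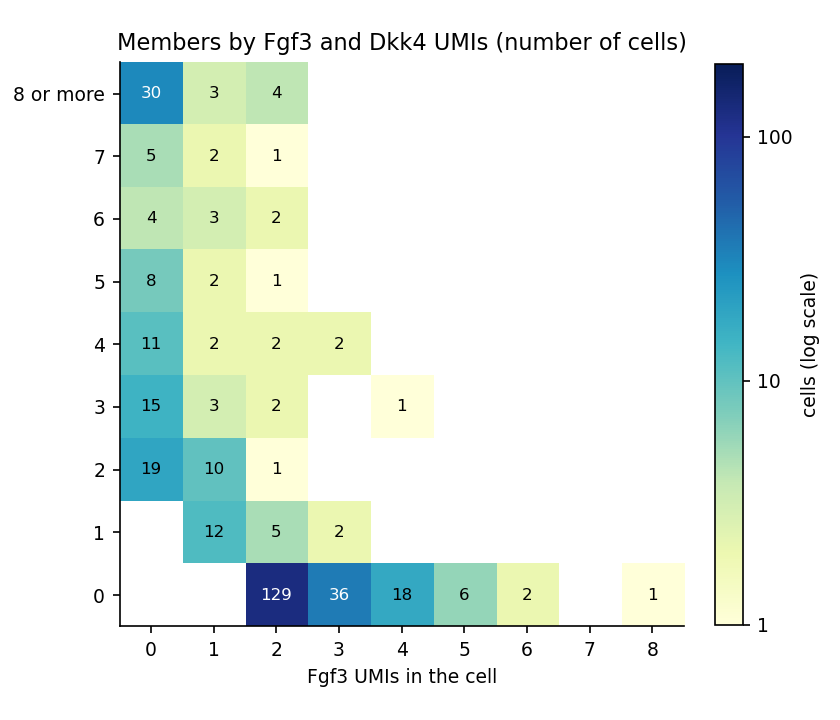
Number of Fgf3/Dkk4 cells at each count of Fgf3 UMIs (x axis) and Dkk4 UMIs (y axis, counts of 8 or more joined); colour gives the number of cells on a log scale. Cells lie along both axes: 129 held 2 Fgf3 UMIs and no Dkk4, and 30 held 8 or more Dkk4 UMIs and no Fgf3.

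Fgf3 was detected more often in Epcam cells with Dkk4 than in those without it, although most cells with either transcript held it alone. Both were found in 107 cells, Fgf3 alone in 1189 and Dkk4 alone in 273. Fgf3 was detected in 28.2% of cells with a Dkk4 UMI (107 of 380) and in 6.14% of cells without one. Since deep cells hold more of any transcript, the shares were also taken after thinning to 2000 UMIs, where they were 6.21% (10 of 161 cells, 3.02 to 11.1%) and 1.74% (1.55 to 1.94%). The intervals did not overlap in either form, and the thinned value rests on 10 cells.

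A narrow set of genes distinguished the Fgf3/Dkk4 cells. Of 5594 genes that reached 20 CPM in the Fgf3/Dkk4 cells or in the others, 51 (0.912%) were higher and 10 (0.179%) were lower by at least 2-fold in CPM + 1, and the median log2 ratio over these genes was -0.01. At least as many of them thus lay below the other cells as above. These shares over all genes are the background for the gene lists below. Of the 51, 29 reached 20 CPM only in the Fgf3/Dkk4 cells and so had to be higher, and 9 of the 10 reached it only in the others. Among 5319 genes with at least 20 CPM in the other cells, a filter added after the values were seen, 22 (0.414%) were higher and 10 (0.188%) lower. Dkk4 (209 against 3.81 CPM), Fgf3 (132 against 7.16 CPM) and Car9 (0 against 22.2 CPM) are among the counted genes and were fixed by the rule. The genes that the rule did not use were led by the calcium-binding protein gene S100a6, the growth arrest gene Gadd45g, the BMP ligand gene Bmp2, the stress transcription factor gene Atf3, the Wnt ligand gene Wnt6 and the keratin gene Krt18. Leaving out unnamed models, they were followed by S100a14, the innate immunity gene Pglyrp1, the matrix gene Smoc2, Krt8, Runx1 and the matrix gene Spock2. Next came A2ml1, Pcdh8, Bpifb5, S100a13, S100b and the cell cycle inhibitor gene Cdkn1c. Of these genes, S100a6, Gadd45g, Wnt6, Krt18, Pglyrp1, Spock2, Bpifb5, S100a13 and Cdkn1c reached 20 CPM in the others. The rest, Bmp2 and Atf3 among them, were counted through the Fgf3/Dkk4 cells.

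S100a6 was at 1567 CPM (1530 to 1605) in the Fgf3/Dkk4 cells and 202 CPM in the others, a 7.77-fold difference (7.57 to 7.98). This level was carried by few cells. The median Fgf3/Dkk4 cell held 2 S100a6 UMIs, 239 of 344 cells held at least 1, the highest held 707, and the 10 highest cells held 48.0% of the set's S100a6 UMIs. After thinning to 2000 UMIs, 45.1% of the Fgf3/Dkk4 cells and 13.1% of the others kept an S100a6 UMI, against 4.26% of the mesenchyme-like cells of the library. These were taken as a reference for free RNA, but whether they make S100a6 themselves was not tested. Shares with 10 or more S100a6 UMIs were then 9.30% and 0.907%. Without called doublets the fold was 10.9 (10.5 to 11.2).

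Several other S100 genes were higher, and no annexin gene passed 2-fold. Of 11 measured S100 and annexin genes (at least 20 CPM), 4 were higher by 2-fold, against 0.912% of all genes, and 0 lower. Of the 11, 8 were above the other cells in any degree. The median log2 ratio was 0.56 over 13 genes with at least 5 CPM, against -0.01 over all 9895 genes at that level. S100a13 was at 308 against 111 CPM (2.78-fold, 2.63 to 2.94), S100a14 at 31.6 against 8.53 CPM, and S100b at 23.6 against 8.13 CPM. S100a14 and S100b, with Anxa7, reached 20 CPM only in the Fgf3/Dkk4 cells; of the 8 genes with 20 CPM in the others, S100a6 and S100a13 were the 2 past 2-fold and 5 were above. S100a1 stood at 527 against 290 CPM and S100a11 at 430 against 291 CPM, under 2-fold, while S100a10 was lower at 135 against 158 CPM. Without called doublets S100a1 was at 670 against 303 CPM, past 2-fold. Of the annexins, Anxa2 (39.2 against 32.3 CPM) and Anxa7 (25.2 against 19.2 CPM) were slightly above, and Anxa5 (109.7 against 111.1 CPM) and Anxa6 (149 against 161 CPM) slightly below. In GRCm38, S100a1, S100a13, S100a14 and S100a6 lie close together on chromosome 3 (chr3:90511034-90514392, chr3:90514435-90524581, chr3:90526856-90528837 and chr3:90612882-90624181), while S100b lies apart on chromosome 10 (chr10:76253853-76261159).

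Epithelial keratin genes were higher, and junction genes less so. Krt18 was at 160 against 43.3 CPM (3.69-fold, 3.41 to 3.99) and Krt8, its partner in the filaments of simple epithelia, at 60.0 against 18.5 CPM. These were the 2 genes past 2-fold among 8 measured junction and keratin genes, against 0.912% higher over all genes, and Krt8 reached 20 CPM only in the Fgf3/Dkk4 cells. Cldn3, a tight junction gene, was at 461 against 304 CPM, Cdh1 at 54.5 against 46.5 CPM, and Epcam, which the rule requires, was slightly lower.

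Genes of the FGF pathway showed no common shift. Among 19 FGF ligand genes 2 reached 20 CPM: Fgf3, which the rule used, and Fgf10, a ligand of the otic epithelium, which was at 19.7 CPM in the Fgf3/Dkk4 cells and 38.1 CPM in the others (1.93-fold lower, 1.56 to 2.42). Fgf20, a ligand of the prosensory domain, was rare and higher, with 22 UMIs in the Fgf3/Dkk4 cells (5.04 against 0.833 CPM, 6.05-fold, 3.68 to 9.52). Fgf9 was at 16.9 against 12.1 CPM, and 8 ligand genes had no UMI in the Fgf3/Dkk4 cells, Fgf8 among them. Of the receptors, Fgfr1 was at 16.9 against 15.4 CPM, Fgfr2 at 5.95 against 4.77 CPM and Fgfr4 at 2.52 against 2.71 CPM, while Fgfr3 had 0 UMIs; the 3 levels above 0 had intervals that overlapped between the sets. Fgfrl1, a receptor without a kinase domain, stood at 155 against 86.5 CPM (1.79-fold, 1.66 to 1.94). Of 11 measured FGF and ERK target genes none passed 2-fold in either direction, and the median log2 ratio was 0.14. Dusp6, a phosphatase induced by ERK, was at 91.4 against 75.6 CPM, Spry1 at 43.7 against 31.6 CPM, Etv4 at 87.5 against 92.4 CPM and Phlda1 at 1035 against 613 CPM.

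Wnt genes were higher in part. Wnt6 was at 211 CPM (197 to 225) against 54.2 CPM, a 3.89-fold difference (3.63 to 4.16), and was detected in 267 of the 344 cells. After thinning, 33.7% of the Fgf3/Dkk4 cells, 9.27% of the others and 0.949% of mesenchyme-like cells held a Wnt6 UMI. Wnt5a, the other Wnt ligand gene past 20 CPM, was lower at 248.7 against 316 CPM. Wnt target and feedback genes had a median log2 ratio of 0.26 over 19 genes, against -0.01 over all genes. Of the 16 measured, 2 were higher by 2-fold, against 0.912% of all genes, 0 were lower and 13 were above the other cells in any degree. The 2 were Notum, a secreted enzyme that inactivates Wnt ligands (68.9 against 28.6 CPM, 2.41-fold), and Wif1, a secreted Wnt-binding inhibitor (93.4 against 45.01 CPM, 2.08-fold). Under 2-fold were Nkd1 (440 against 267 CPM), Axin2 (160 against 119 CPM) and Sp5 (202 against 144 CPM), and Sfrp1, a further secreted inhibitor, was at 61.8 against 114 CPM. Without called doublets Sfrp1 was at 59.2 against 120 CPM, just past 2-fold. Of the other Dickkopf genes, Dkk2 was at 239 against 152 CPM (1.57-fold, 1.47 to 1.67), Dkk3 at 6.18 against 3.81 CPM and Dkk1 had 1 UMI; Kremen1, a Dickkopf receptor gene, was at 52.7 against 35.6 CPM. None of the 12 measured Wnt receptor genes passed 2-fold, and Lgr5 among them was limited by the rule.

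The 250 bases before the annotated start were read from RefSeq (GRCm38.p6) for the genes that stood highest in the Fgf3/Dkk4 cells, to see whether the higher genes share the core Wnt response motif CTTTGAT on either strand, to which TCF and LEF factors bind. Of 14 genes looked up, the 12 highest with at least 50 CPM together with Fgf3 and Dkk4, 11 were matched and 1 of these held the motif. Dkk4, Smoc2 and Cdkn1c had no matching entry, so their promoters were not examined. Of 32851 promoters held by RefSeq 3.21% had it. For 3 of the 11, Fgf3, Atf3 and Pglyrp1, the RefSeq window lay wholly inside the gene as GENCODE annotates it, downstream of its outermost start, and none of these 3 held the motif. Shown are S100a6 (chr3:90612644-90612893, plus strand) and Wnt6 (chr1:74771642-74771891, plus strand), the leading gene and the Wnt ligand, and Bpifb5 (chr2:154223492-154223741, plus strand), the gene with the match, whose first base lay 67 bases before the start and is in capitals with the rest of the motif, read here as its reverse complement.
S100a6: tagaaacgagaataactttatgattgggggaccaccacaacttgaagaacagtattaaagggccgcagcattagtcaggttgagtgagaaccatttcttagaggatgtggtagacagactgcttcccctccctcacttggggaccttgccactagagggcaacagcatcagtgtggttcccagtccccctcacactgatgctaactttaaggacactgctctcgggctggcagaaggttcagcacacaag
Wnt6: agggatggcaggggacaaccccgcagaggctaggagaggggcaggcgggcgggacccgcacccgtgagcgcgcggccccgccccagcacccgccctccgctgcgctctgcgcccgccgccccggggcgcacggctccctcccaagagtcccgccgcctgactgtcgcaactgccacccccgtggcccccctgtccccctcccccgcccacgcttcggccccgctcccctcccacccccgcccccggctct
Bpifb5: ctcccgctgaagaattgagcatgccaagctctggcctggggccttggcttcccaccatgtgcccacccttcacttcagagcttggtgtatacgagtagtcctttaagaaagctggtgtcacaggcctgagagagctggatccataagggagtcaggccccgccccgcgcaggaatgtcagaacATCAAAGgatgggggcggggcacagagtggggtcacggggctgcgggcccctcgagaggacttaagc
The S100a6 and Wnt6 windows differed in base composition, with 50.0% and 79.6% G and C, and Bpifb5 had 60.0%. Bpifb5, a member of the BPI-fold family of secreted lipid-binding proteins, was at 211 against 75.7 CPM (2.79-fold, 2.61 to 2.99).

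Few genes of ectodermal placodes and of the dorsal otic vesicle were detected well in the other cells. Of 17 placode genes, 4 had at least 5 CPM in the others, and these were above them: the ectodysplasin receptor gene Edar (12.6 against 6.38 CPM), the chemokine receptor gene Cxcr4 (183 against 113 CPM), Trps1 (44.4 against 31.5 CPM) and Bmp7 (96.4 against 76.7 CPM). None of the 3 with at least 20 CPM in the others passed 2-fold. Bmp2, at 26.6 against 4.66 CPM (5.71-fold, 4.65 to 6.94), and Fgf20 reached 5 CPM only in the Fgf3/Dkk4 cells and so had to be higher. Among 11 measured otic vesicle and dorsal otic genes, 3 were higher by 2-fold, against 0.912% of all genes, and 0 lower. They were Hmx2 (40.5 against 16.3 CPM) and Hmx3 (43.7 against 20.0 CPM), which encode homeodomain factors of the vestibular ear, and Oc90 (31.6 against 12.02 CPM), which encodes the main otoconial matrix protein. All 3 were under 20 CPM in the others, Hmx3 only just, and so were counted through the Fgf3/Dkk4 cells; of the 8 genes with 20 CPM in the others none passed 2-fold and 4 were above. After thinning to 2000 UMIs the log2 ratio of Hmx3 was 0.97, under 2-fold. Other genes of that list did not follow, with Eya1 at 90.9 against 99.5 CPM and Gata3 at 56.3 against 82.2 CPM, and the median log2 ratio was 0.06.

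Most measured genes of the greater epithelial ridge, the medial part of the cochlear floor, were lower. Of 8 measured ridge genes, 1 was lower by 2-fold, against 0.179% of all genes, 0 were higher, and 2 were above the other cells. The median log2 ratio was -0.54 over 11 genes, against -0.01 over all genes. The 2 above were Cst3 and Epyc. With Dcn, which was lower, they had the most UMIs of the list in the Fgf3/Dkk4 cells. The tectorial membrane gene Tecta was at 9.39 against 22.8 CPM (2.43-fold lower, 1.79 to 3.39), but its log2 ratio was -0.82 after thinning and -0.97 without called doublets, under 2-fold in both. Tectb had 1 UMI (0.229 against 5.55 CPM) and Otoa was at 7.56 against 19.9 CPM. The Notch ligand gene Jag1, which marks the prosensory domain and the ridge, was at 51.8 against 90.2 CPM (1.74-fold lower, 1.53 to 2.00), and Clu at 21.5 against 42.9 CPM. Without called doublets Clu was at 14.5 against 49.0 CPM, past 2-fold. The supporting cell list was mixed. Of 11 measured genes Glul (321 against 151 CPM) and S100b, the latter counted through the Fgf3/Dkk4 cells, were higher by 2-fold, against 0.912% of all genes. Sparcl1 stood at 23.1 against 40.4 CPM.

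Cell cycle genes were lower across both lists, most by a small amount. None of 34 measured S phase genes and none of 45 measured G2/M genes passed 2-fold, but only 2 and 1 of them were above the other cells. The medians were -0.29 and -0.50 on the log2 scale, against -0.01 over all genes. Nusap1, a spindle gene, was at 36.9 against 64.6 CPM and Cenpf, a kinetochore gene, at 95.05 against 164 CPM. After thinning to 2000 UMIs, a cell was counted when these lists took at least 2% of its UMIs. This held for 1 of 344 Fgf3/Dkk4 cells (0.291%, 0.00736 to 1.61%) and 0.913% (0.780 to 1.06%) of the others, which overlaps. The bound misses most cycling cells and does not give their share. In the clustering described below, cluster 1, led by mitotic genes, held 14.5% of Epcam cells, and cluster 7, led by Ccne2 and Rrm2, held 7.30%. With a bound of 1%, chosen after the values were seen because so few cells of any set reached 2%, the shares were 11.6% (8.44 to 15.5%) and 26.9% (26.3 to 27.6%). The share was 5.73% (2.89 to 10.0%) in cells with Fgf3 alone. In cells with Dkk4 alone it was 23.9% (15.6 to 33.9%), which overlaps the others.

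Inhibitors of the cycle were mixed, with 2 well above the other cells. Of 10 measured inhibitor and p53 target genes, 2 were higher by 2-fold, against 0.912% of all genes, and 0 lower. Of the 10, 6 were above in any degree, while Cdkn1b (36.4 against 40.3 CPM), Cdkn2d, Btg1 (162 against 215 CPM) and Bax were not. Gadd45g was at 277 CPM (262 to 293) against 53.3 CPM, a 5.20-fold difference (4.89 to 5.52), and Cdkn1c, which encodes the inhibitor p57, at 438 against 164 CPM (2.68-fold, 2.55 to 2.80). Cdkn1a was at 233 against 141 CPM. Gadd45g was detected in 62.8% of the Fgf3/Dkk4 cells and 20.2% of the others. After thinning these were 29.9% and 8.00%, and mesenchyme-like cells gave 10.6%. The Fgf3/Dkk4 cells were thus above both. Whether mesenchyme-like cells make Gadd45g themselves was not tested, so they do not set a background of free RNA for it. For Cdkn1c the shares were 49.1%, 22.3% (21.7 to 22.9%) and 19.7% (18.6 to 20.9%), and the same limit holds.

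All 14 measured stress and immediate early genes were above the other cells, most by little. Atf3 alone passed 2-fold (56.1 against 13.4 CPM, 4.18-fold, 3.65 to 4.77), counted through the Fgf3/Dkk4 cells. The 12 genes with 20 CPM in the others were also all above. The median log2 ratio was 0.28, against -0.01 over all genes, of which 0.912% were higher by 2-fold. Nr4a1 was at 67.8 against 38.0 CPM and Jun at 142 against 97.2 CPM, while Fos was at 208 against 179 CPM.

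Glycolysis and hypoxia genes were lower, in a set from which the rule had removed every cell with Car9. Apart from Car9, none of the 22 measured genes passed 2-fold, 3 were above the other cells, and the median log2 ratio was -0.33. Slc16a3, a lactate transporter gene, was at 17.4 against 35.4 CPM, and Higd1a at 448 against 696 CPM. In the other Epcam cells that also lacked Car9 and had at most 1 Lgr5 UMI, Slc16a3 stood at 27.5 CPM and Higd1a at 596 CPM. MHC class I and interferon genes had a median of -0.41, with H2-K1 at 20.4 against 34.0 CPM.

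Among single genes, Efhd1, which encodes a mitochondrial calcium-binding protein, was at 46.0 against 101 CPM (2.19-fold lower, 1.90 to 2.52). Its log2 ratio was -0.78 after thinning and -0.93 against other cells without Car9 and with at most 1 Lgr5 UMI, under 2-fold in both. The cytokine gene Il33 was at 134 against 251 CPM and the cartilage collagen gene Col2a1 at 81.5 against 145 CPM, both under 2-fold. Without called doublets Col2a1 was at 75.5 against 153 CPM, just past 2-fold, and Il33 at 129 against 253 CPM, under it. The remaining genes past 2-fold on this side were rare in the Fgf3/Dkk4 cells: Defa21 (1.15 against 21.7 CPM), Defa22 (2.75 against 21.1 CPM), Apba2, Col27a1, Mfap2, Fndc1 and Sapcd2, at 8.70 to 14.2 CPM against 21.0 to 30.8 CPM.

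Levels were graded over the number of Fgf3 and Dkk4 UMIs, including the cells outside the rule. In cells with 0, 1, 2, 3 or 4, and 5 or more UMIs, S100a6 was at 181, 658, 1233, 1980 and 1691 CPM. Gadd45g was at 49.0, 124, 158, 236 and 535 CPM, and was 3.38-fold higher (2.95 to 3.89) in cells with 5 or more UMIs than in cells with 2. Wnt6 was at 51.8, 120, 196, 225 and 220 CPM. The steps also differ in which transcript the cells held: 129 of the 160 cells with 2 UMIs had Fgf3 alone, whereas 89.2% of those with 5 or more held Dkk4 and 43.4% Fgf3. Among cells with Dkk4 alone, Gadd45g was at 304, 260 and 547 CPM at 2, 3 or 4, and 5 or more UMIs (19, 26 and 47 cells), and S100a6 at 304, 279 and 456 CPM. Among cells with Fgf3 alone, Gadd45g was at 143, 215 and 318 CPM (129, 54 and 9 cells), and S100a6 at 1316, 2933 and 372 CPM, the last from 48 UMIs. Gadd45g was thus highest at 5 or more UMIs within each kind, while S100a6 followed no common order. Over all cells, Notum went from 27.3 to 44.9, 49.5, 78.5 and 92.6 CPM, and Pcdh8 from 7.95 to 22.8, 28.8, 36.1 and 50.4 CPM. Fgf20 was at 0.586 CPM without either transcript and 11.7 CPM with 5 or more UMIs, from 13 UMIs. Fgf10 went the other way, from 34.1 CPM to 14.4 CPM, and Jag1 had its lowest level at 3 or 4 UMIs (35.3 CPM) and 66.5 CPM at 5 or more.

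**Figure D2:**
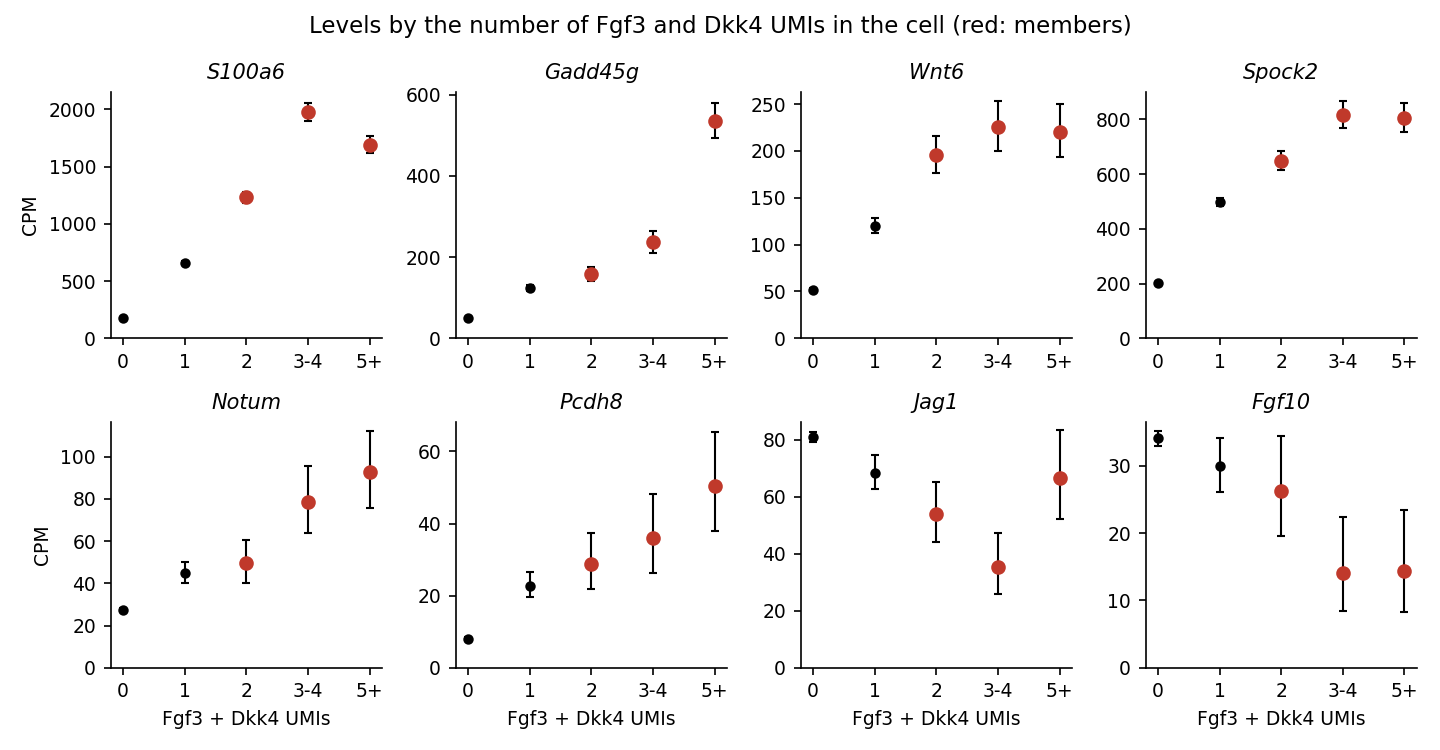
Levels of 8 genes (CPM) in cells with 0, 1, 2, 3 or 4, and 5 or more UMIs of Fgf3 and Dkk4 together (x axis); red points are Fgf3/Dkk4 cells, black points Epcam cells outside the rule by count alone, and bars exact Poisson 95% intervals. Gadd45g is highest at 535 CPM in cells with 5 or more UMIs, while S100a6 is highest at 1980 CPM in cells with 3 or 4.

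The 83 cells with 5 or more UMIs were also set against the 15470 Epcam cells that held at most 1 Fgf3 or Dkk4 UMI, no Car9 and at most 1 Lgr5 UMI. Of 5665 genes, 85 (1.5%) were higher and 42 (0.741%) lower by 2-fold, against 66 (1.18%) and 21 (0.376%) of 5585 genes for all 344 cells and the same comparison cells. Dkk4 and Fgf3 are counted as higher in both through the rule. To take levels from UMIs that did not choose the cells, the UMIs of each cell were split at random into equal parts. Cells were chosen on the first part and levels were taken from the second. The limits on Car9 and Lgr5 also applied to the first part alone. In the second part the chosen cells held 13 Car9 UMIs, and Lgr5 was at 62.9 against 53.2 CPM, so they are not the same set as the 344 cells. In the 213 cells chosen this way Dkk4 was 93.3-fold, Fgf3 7.33-fold, S100a6 5.02-fold (4.78 to 5.28), Gadd45g 6.58-fold (5.99 to 7.21) and Wnt6 3.67-fold (3.26 to 4.11) higher. Krt8 (1.63-fold), S100b (1.52-fold), Oc90 (1.23-fold) and Wif1 (1.83-fold) did not reach 2-fold there.

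Cells with Fgf3 alone and cells with Dkk4 alone were not alike. Of 5776 genes with at least 20 CPM, 96 (1.66%) were higher and 39 (0.675%) lower by 2-fold in the 192 cells with Fgf3 alone than in the 92 cells with Dkk4 alone. Fgf3 and Dkk4 are among these by the way the cells were split. S100a6 was at 1709 CPM with Fgf3 alone, 384 CPM with Dkk4 alone and 2429 CPM with both. It was 4.45-fold higher (4.002 to 4.95) in the first than in the second, by counting error alone. These sums were carried by few cells: the median cell held 3, 1 and 2 UMIs, and the highest 588, 78 and 707. At 5 or more UMIs the order was the reverse, with 372 CPM for Fgf3 alone (9 cells) and 456 CPM for Dkk4 alone (47 cells). Summed over all cells of each kind, S100a13 (368 against 133 CPM), Krt18 (204 against 77.1 CPM) and Krt8 (82.5 against 30.4 CPM) were also higher with Fgf3 alone. So were Bpifb5 (259 against 118 CPM) and the glutathione peroxidase gene Gpx2 (119 against 39.5 CPM). The surface protein genes Lrrn1, Cspg5 and Tm4sf1 differed by 3.69-fold, 3.18-fold and 2.89-fold. S100b was at 30.5 against 5.07 CPM, the latter from 5 UMIs.

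Gadd45g and Atf3 were distributed the other way. Gadd45g was at 431 CPM with Dkk4 alone and 172 CPM with Fgf3 alone (2.51-fold, 2.18 to 2.87), and 384 CPM with both. Atf3 was at 84.2 and 39.6 CPM (2.13-fold, 1.56 to 2.88). Crym, which encodes a thyroid hormone-binding protein, was at 177 and 76.7 CPM, the former close to the 187 CPM of the other Epcam cells. Further genes higher with Dkk4 alone were the RNA helicase genes Ddx39 (79.1 against 39.6 CPM) and Ddx18 (53.7 against 23.9 CPM), the histone gene Hist1h2ae (81.1 against 37.1 CPM), the replication factor gene Rfc4 (53.7 against 26.4 CPM) and Ifitm1 (53.7 against 25.6 CPM). The share of cells with at least 1% of thinned UMIs on cycle genes was 23.9% (15.6 to 33.9%) with Dkk4 alone and 5.73% (2.89 to 10.0%) with Fgf3 alone. In the other Epcam cells it was 26.9% (26.3 to 27.6%). Wnt6, Notum and Spock2 differed less, with Wnt6 at 217 and 164 CPM, Notum at 59.4 and 53.7 CPM and Spock2 at 714 and 634 CPM. The cells with Fgf3 alone were deeper, with a median of 11746.5 UMIs against 8575, and held 2424117 UMIs in all against 986219, so that levels with Dkk4 alone rest on fewer counts. Called doublets were 37.5% and 39.1% of the cells.

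**Figure D3:**
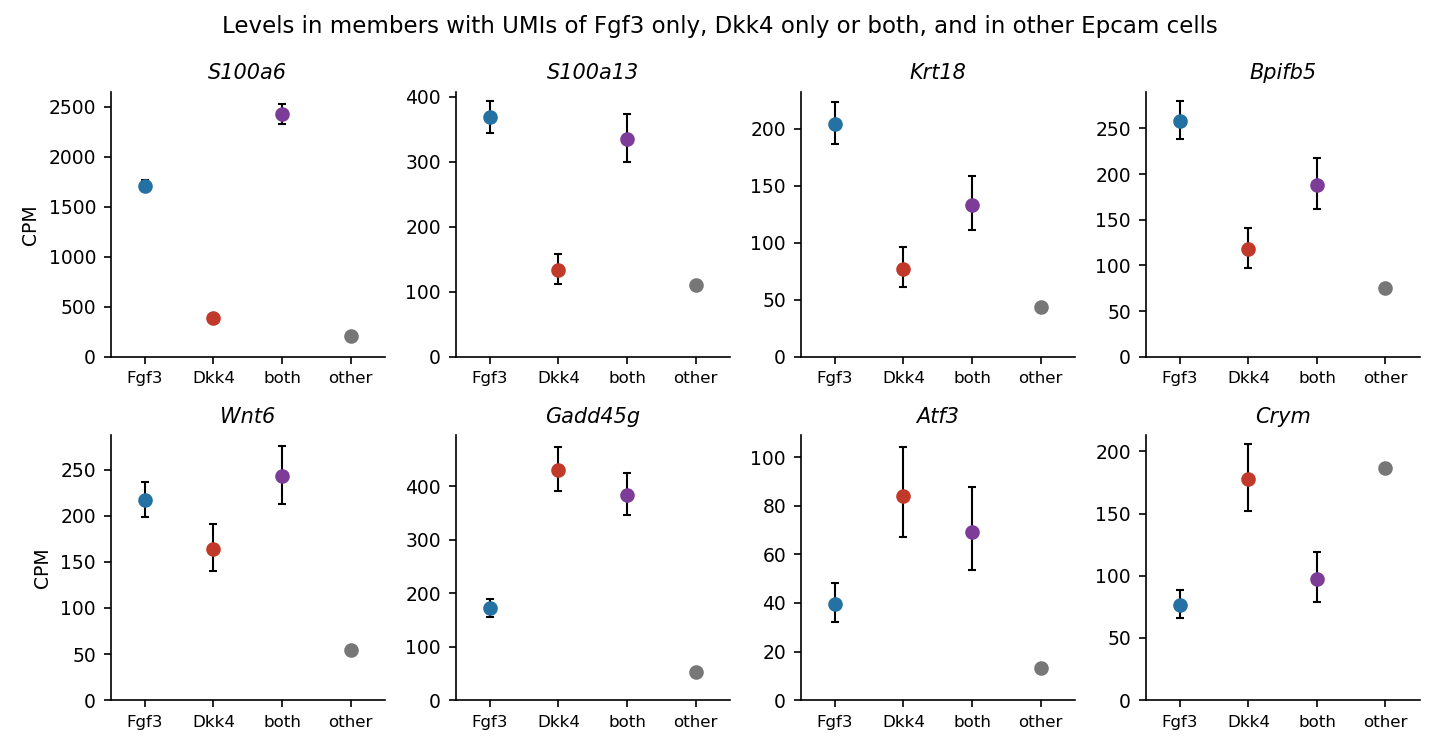
Levels of 8 genes (CPM) in Fgf3/Dkk4 cells with UMIs of Fgf3 alone (192 cells), Dkk4 alone (92 cells) or both (60 cells) and in other Epcam cells (19393 cells); bars are exact Poisson 95% intervals. S100a6, S100a13, Krt18 and Bpifb5 are higher with Fgf3 alone than with Dkk4 alone, and Gadd45g, Atf3 and Crym the reverse.

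The Epcam cells were also clustered without Fgf3, Dkk4, Epcam, Car9 and Lgr5. Of 13 clusters, cluster 2 (2182 cells) held 171 of the Fgf3/Dkk4 cells (49.7%, 44.3 to 55.1%) and 10.4% of the others. Its leading genes were S100a6, Krt18, Smoc2, Neat1, Gadd45g, Rnase1, Pglyrp1, Cited4, Vcan and Spock2, and it was given no cell type name. Fgf3/Dkk4 cells were 7.84% of its cells. They comprised 111 of the 192 cells with Fgf3 alone, 35 of the 92 with Dkk4 alone and 25 of the 60 with both. Next was cluster 3, led by Efhd1, with 14.8% of the Fgf3/Dkk4 cells, a median of 20633 UMIs and 63.5% called doublets. It was followed by cluster 4, led by the mesenchyme gene Otor and made up of called doublets to 98.1%, with 10.5% of the Fgf3/Dkk4 cells. Cluster 1, led by mitotic genes, held 9.01% of them and 14.6% of the others. Clusters 10 and 11, the latter led by the ridge gene Tectb, held 1 Fgf3/Dkk4 cell each.

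**Figure D4:**
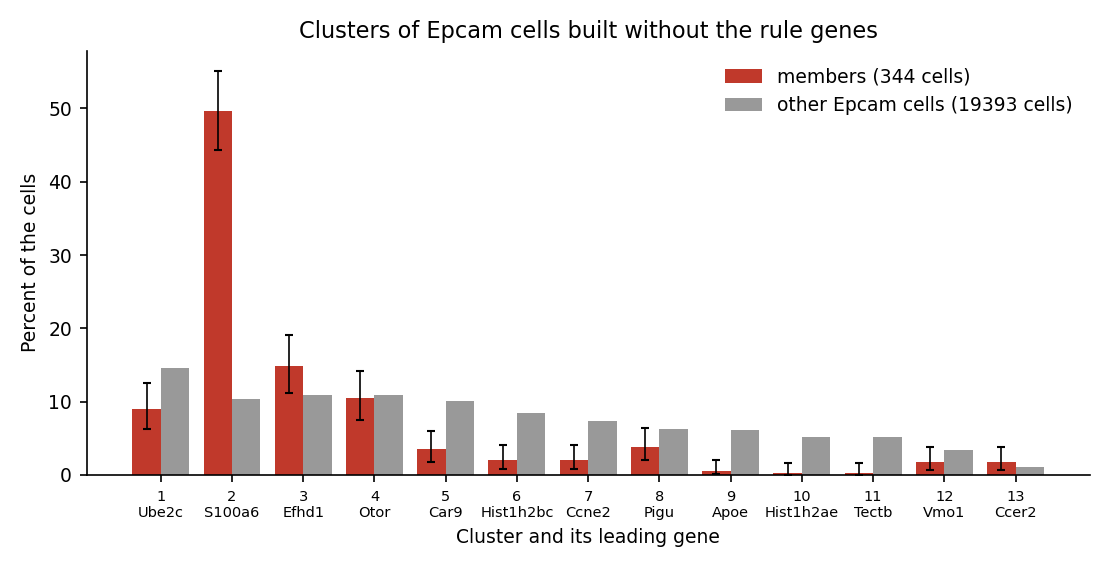
Percent of the 344 Fgf3/Dkk4 cells (red, with exact Clopper-Pearson 95% intervals) and of the 19393 other Epcam cells (grey) in each of 13 clusters built without the rule genes; the leading gene of each cluster is given under its number. Cluster 2 holds 49.7% of the Fgf3/Dkk4 cells and 10.4% of the others.

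Most of the 51 higher genes differed by less inside cluster 2 than over all cells. Inside it 12 of 5445 genes (0.22%) were higher by 2-fold and 6 (0.11%) lower. Of the 51, 9 were among the higher, and 49 were above in any degree. Outside it 33 of 5645 (0.585%) were higher, 30 of them among the 51, and 8 (0.142%) lower. Through the rule, Dkk4 and Fgf3 are counted as higher and Car9 as lower on both sides, and Lgr5 as lower inside. The 51 were picked as higher over these same cells, so the counts are a description and no separate check. Among cells of the cluster, S100a6 was at 3253 CPM in Fgf3/Dkk4 cells and 1160 CPM in the others, and outside it at 379 and 95.8 CPM. Gadd45g was at 394 and 190 CPM inside and 194 and 38.2 CPM outside, and Wnt6 at 261 and 123 CPM inside and 175 and 46.6 CPM outside. Under 2-fold inside were Krt18 (277 and 164 CPM), Spock2 (981 and 717 CPM), Bpifb5 (307 and 198 CPM), Pglyrp1 (98.01 and 74.3 CPM), Smoc2 (88.0 and 65.1 CPM) and Hmx2 (40.4 and 32.5 CPM). Pcdh8 differed little inside (54.8 and 42.2 CPM) and more outside (23.4 and 8.90 CPM). The Fgf3/Dkk4 cells outside the cluster had a median of 13917 UMIs and 53.8% called doublets, against 8779 UMIs and 23.4% inside, and the part of depth and doublets in this split was not tested. Over the 15 nearest neighbours in the same space, a mean of 11.8% of the neighbours of an Fgf3/Dkk4 cell were Fgf3/Dkk4 cells, against 1.03% around cells with neither transcript and 5.38% around cells with 1 UMI. With 5 or more UMIs this was 15.02%.

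The differences were also taken against the 2 groups of Epcam cells that the rule removed. Against 1399 cells with more than 1 Lgr5 UMI, no Car9 and fewer than 2 Fgf3 and Dkk4 UMIs, 50 of 5729 genes (0.873%) were higher and 20 (0.349%) lower. Against 1853 cells with Car9, 50 of 5565 genes (0.898%) were higher and 38 (0.683%) lower. Dkk4 and Fgf3 are counted as higher in both, and Lgr5 or Car9 as lower, because the cells were chosen on them. S100a6 was at 153 CPM in the Lgr5-high cells and 123 CPM in the Car9 cells, Gadd45g at 42.9 and 39.9 CPM, and Wnt6 at 58.1 and 32.5 CPM, so that the Fgf3/Dkk4 cells were the higher in each. Krt18 was 7.36-fold higher than in Lgr5-high cells (21.7 CPM). Efhd1 was at 131 CPM and Jag1 at 120 CPM in the Lgr5-high cells, and Col2a1 at 199 CPM in the Car9 cells.

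The same rule found almost no cells after expansion. On day 5, 2 of 8851 Epcam cells met it (0.0226%, 0.00274 to 0.0816%), both with Fgf3 alone, and on day 25, 0 of 5371, which allows a share of up to 0.0687% by the exact interval. After thinning to 2000 UMIs, 0 of 6840 and 0 of 4619 Epcam cells met it, against 0.528% in expansion. Over all Epcam cells, Dkk4 was at 8.94 CPM in expansion, had 1 UMI on day 5 and 0 on day 25. Fgf3 was at 10.3 CPM in expansion, 0.0886 CPM on day 5 (10 UMIs) and had 1 UMI on day 25. The genes that were higher in Fgf3/Dkk4 cells did not share 1 course. Wnt6 (58.1, 1.33 and 1.11 CPM), Bpifb5 (79.1, 0.593 and 0.839 CPM), Notum (29.6, 3.11 and 0.782 CPM) and Pcdh8 (12.8, 1.59 and 2.11 CPM) were lower in the Epcam cells of day 5 and day 25 than of expansion. S100a6 was lower by less, at 236, 136 and 56.7 CPM. Gadd45g was at 58.9, 127 and 173 CPM, and Krt18 (46.2, 17.4 and 820 CPM), Krt8 (19.5, 15.3 and 948 CPM) and S100a13 (116, 167 and 1608 CPM) were highest on day 25. These are 3 libraries made at different stages, with 1 library each, so stage and library cannot be told apart.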

How the data were processed

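The authors deposited raw UMI counts per gene and barcode, made with Cell Ranger 3.0.1 (expansion, day 5) and 3.1.0 (day 25), as the deposited file headers state. GRCm38 and hg38 are the builds listed by the submitters' processing notes; the annotation release is not given in the sources used here. Barcodes with at least 500 genes and at most 20% mitochondrial UMIs were kept. The cells and the 39 gene lists were chosen with earlier results of these data known. UMIs were summed over cells and scaled to CPM, with exact Poisson intervals. Genes were called higher or lower at a ratio of 2 or more in CPM + 1 where 1 of the sets reached 20 CPM, without mitochondrial genes; list medians covered genes with at least 5 CPM, where at least 5 were measured. No test was run, since each group held 1 library. The counting was tested on simulated data.

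The text names the 12 genes highest and lowest by ratio with at least 50 CPM in the higher set (without ribosomal protein genes, unnamed models and rule genes), up to 4 genes of each list, the FGF and Dickkopf genes, the 8 highest on each side between Fgf3 and Dkk4 cells, and further list members whose values had been seen; not every one of these is reported here. Doublets were scored against 27996 simulated pairs (1500 variable genes, 30 components, 80 neighbours), and the highest scores were called up to an expected 0.8% per 1000 barcodes; 6124 barcodes (21.9%) were called and kept, and 79.5% of simulated pairs scored as high. Clusters used 2000 variable genes, 30 components, 15 neighbours and Leiden resolution 1 (leidenalg 0.10.2). Alternatives covered scaling (TMM in edgeR, median of ratios), pseudocount, filters, thinning, doublets and the rule itself. Of 728 listed genes, 726 matched 1 row.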

Additional observations from a re-analysis of the deposited data

How the results depend on the processing

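Against 51 genes higher and 10 lower by 2-fold in Fgf3/Dkk4 cells, the higher count became 137 without a filter beyond 1 CPM, 111 after thinning to 2000 UMIs, 87 without called doublets, 26 with at least 1 UMI of Fgf3 and Dkk4 and 22 with at least 20 CPM in the other cells. The lower count became 83, 69, 55 and 1 in these settings, 4 with a pseudocount of 5 CPM, 25 with the mean of each cell's CPM, 21 with other cells limited to no Car9 and at most 1 Lgr5 UMI, 21 with at least 3 UMIs, and 16 with cells chosen on 1 part of the UMIs and measured in the other. The last setting, the filter on the other cells, the 1% bound and leaving out the 10 cells highest in S100a6 were added after seeing the data. Removing the filter adds genes and filtering on the other cells removes them; the cause of the other changes was not tested. Of the 51 higher genes, 51 stayed past 2-fold under TMM, under median of ratios and without called doublets, 49 after thinning and 39 in the split, while 38 stayed with a pseudocount of 5 CPM and 26 with at least 1 UMI. Of the 10 lower genes 9 stayed without doublets, 6 after thinning, 5 with the other cells limited, 4 with a pseudocount of 5 CPM, 4 in the split and 1 with at least 1 UMI. TMM gave 51 and 11. The share of Fgf3/Dkk4 cells among Epcam cells, 1.74% by the rule, was 1.51% without called doublets, 0.932% with at least 3 UMIs, 5.47% with at least 1 and 0.528% on thinned cells. The share of Fgf3/Dkk4 cells past the bound on cycle genes, 0.291% at the planned 2%, was 1.74% at 1.5% and 11.6% at 1%, against 6.88% and 26.9% of other cells. Of 145 named genes, 138 to 144 kept their sign over 7 settings. Few Fgf3 and Dkk4 UMIs per cell limit the choice of cells: 160 of 344 qualified at exactly 2.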
